A study of Aspergillus niger with 9 samples.

Results

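The mycelium of the Aspergillus niger strain labelled ΔaslB was compared with that of its reference strain MA234.1, library by library. The comparison took every library of both strains, 3 labelled ΔaslB and 3 of MA234.1, which is 6 of the 9 libraries of the series; the other 3 are labelled ΔaslA. A. niger is a filamentous fungus that grows as branched hyphae and secretes enzymes that break down plant material. By its title the series concerns transcription factors that act downstream of FlbA, a protein that switches off G protein signalling and is known in aspergilli for its part in development and secretion. MA234.1 carries no genotype in the labels and is the background of both deletion strains; ΔaslA lacks aslA and ΔaslB lacks aslB. How many independent transformants each deletion strain stands for is not given in the sources used here.

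All libraries are labelled vegetative mycelium from shaken liquid culture, in biological triplicate. Growth, as the labels describe it, was for 16 h with glucose (25 mM) in a medium enriched with casamino acids (0.2%) and yeast extract (0.5%), and for 4 h in minimal medium with xylose (25 mM). Which of the cultures a library came from is not given, so a difference of culture and a difference of strain cannot be told apart where libraries differ. Totals ran from 11321882 to 15068386 counts over the 6 libraries, which puts 3 counts between 0.199 and 0.265 CPM. CPM is a gene's count scaled to a common library total, after TMM, a factor that evens out library composition. Levels are compared between libraries only, not between genes. In bulk RNA, fewer cells of a kind and less RNA per cell cannot be told apart.

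Genes are named by their best SwissProt match, which often comes from another species, and gene numbers are the deposited identifiers. Where levels are given as 3 values against 3, the first are MA234.1 and the second ΔaslB, each in the order of libraries 1 to 3. No gene was matched to the name aslB, so the deletion was not checked by name. None of the 11187 genes of the table had 0 counts in every ΔaslB library and at least 1 CPM in every MA234.1 library: the count was 0.

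Mycelium adapts its transcriptome to its food. On sugars and amino acids a growing hypha makes ribosomes, and rRNA polymerases, assembly factors and ribosomal protein genes move together. On fatty acids, acetate or amino acids as carbon it relies on β-oxidation in peroxisomes, on the glyoxylate cycle that keeps acetyl-CoA carbon, and on gluconeogenesis. Starved or slow mycelium also makes more secreted hydrolases and high-affinity transporters. These programmes are background to the values below and were not tested as causes.

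The edgeR quasi-likelihood test over all 9 libraries called 0 of 9568 genes between ΔaslB and MA234.1 at an adjusted p under 0.05 (0% of genes called), although 2943 genes had an unadjusted p under 0.05. The smallest adjusted p was 0.0665. DESeq2 called 1741 genes, of which 1300 were higher and 441 lower in ΔaslB. The count depended on the method and on the scaling, as edgeR on total counts alone called 783 genes. With the main edgeR settings it turned mainly on 1 library. Without ΔaslB library 2, edgeR called 2561 genes higher (26.5%) and 2541 lower (26.3%) in the remaining libraries. Without library 3 it called 24 genes higher (0.247%) and 0 lower (0%), and without library 1 it called 0 higher (0%) and 0 lower (0%). Fits that hold only MA234.1 and ΔaslB libraries called 0, 5166 and 0 genes without libraries 1, 2 and 3. The labels call the libraries biological triplicates and say no more of how the cultures were kept apart, so the p-values measure the spread between these libraries.

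Set singly beside the MA234.1 mean, the ΔaslB libraries differed in how many genes stood apart. A gene was counted for a library where it lay at least 2-fold from the MA234.1 mean (1 on the scale of log2 CPM with a prior count of 2) and outside the range of the MA234.1 libraries. Library 1 had 1925 genes higher (20.1% of 9568) and 2350 lower (24.6%). Library 3 had 1728 higher (18.1%) and 2509 lower (26.2%). Library 2 had 403 higher (4.21%) and 153 lower (1.60%). These counts describe single libraries and were not tested. By the same rule, each MA234.1 library set against the other 2 had between 2.11% and 3.94% of genes past the fold in either direction, with the range drawn from only 2 libraries. Scaling by total counts alone gave library 2 565 genes higher and 89 lower.

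**Figure D1:**
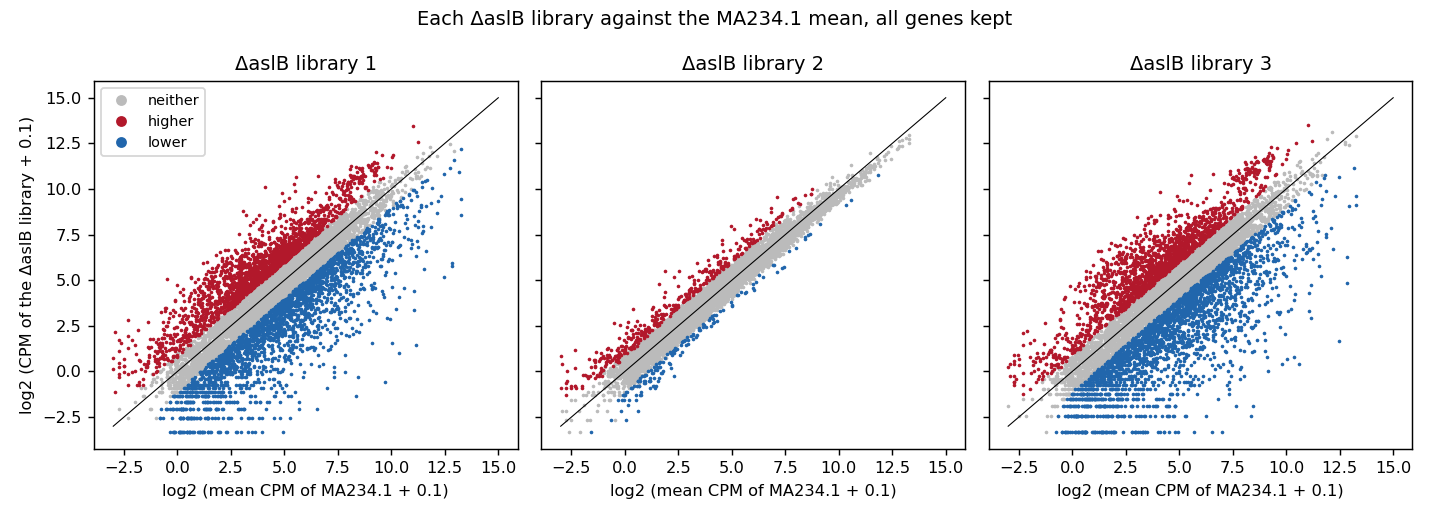
Level of each of the 9568 genes in ΔaslB libraries 1, 2 and 3 (vertical, log2 of CPM + 0.1) against the mean of the 3 MA234.1 libraries (horizontal, same scale); red and blue points are genes at least 2-fold higher or lower and outside the MA234.1 range, and the black line marks equal levels. Library 2 hugs the line, with 403 red and 153 blue genes, while libraries 1 and 3 spread widely on both sides.

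The libraries labelled ΔaslB also differed from each other without reference to MA234.1. Of 9568 genes, 41.4% differed by at least 2-fold between libraries 1 and 2, 45.1% between libraries 2 and 3, and 19.9% between libraries 1 and 3. The same share was 2.23% to 4.78% between MA234.1 libraries and 3.68% to 13.0% between ΔaslA libraries. At 4-fold, 1009 genes were higher and 561 lower in library 2 than in library 1, and 102 were higher and 383 lower in library 3 than in library 1. In a principal component analysis of the 6 libraries the first component held 82.2% of the variance. It placed MA234.1 at 56.5 to 58.2, library 2 at 42.2, library 1 at -96.7 and library 3 at -117.6. The second component held 10% and set library 1 (-48.0) apart from library 3 (42.8), with MA234.1 at 3.2 to 5.3.

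Genes at least 2-fold higher in both libraries 1 and 3 numbered 1340, and 1811 were lower in both. In library 2 the first set had a median log2 difference from MA234.1 of 0.16 (quartiles -0.01 and 0.47) and the second of -0.28 (quartiles -0.50 and -0.05). Of the 1340 genes, 105 were also past the fold upward in library 2 and 3 downward. Of the 1811, 76 were also lower and 22 were higher there. The 3 libraries were set against the same MA234.1 libraries, so errors in that mean are shared by all of these values.

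The machinery that makes ribosomes stood far above MA234.1 in libraries 1 and 3 and near it in library 2. Of all genes, 20.1%, 4.21% and 18.1% were past the fold upward in libraries 1 to 3. All 71 cytosolic ribosomal protein genes were past the fold upward in libraries 1 and 3, and 0 were in library 2. Their median log2 differences were 2.26, 0.09 and 2.67 in libraries 1 to 3, where the median over all genes was 0, -0.07 and -0.07. RPS4 (ATCC64974_94260), of the small subunit, stood at 795, 763 and 745 CPM in the MA234.1 libraries and at 3673, 805 and 4894 CPM in ΔaslB libraries 1 to 3. Library 2 lay just above the MA234.1 range and the others several-fold beyond it. Such levels were not confined to ΔaslB. The ribosomal protein gene p0 (ATCC64974_19830), picked with its values known, read 289, 267 and 272 CPM in MA234.1 and 2474, 321 and 2685 in ΔaslB. In the ΔaslA libraries it read 2842, 2699 and 2812 CPM.

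The factors that build ribosomes had larger median differences than the ribosomal proteins themselves. Of 58 genes of ribosome biogenesis and rRNA processing, 56, 6 and 56 were past the fold upward in libraries 1 to 3. That was 96.6%, 10.3% and 96.6%, against 20.1%, 4.21% and 18.1% of all genes. The median log2 differences of the 58 genes were 3.06, 0.35 and 3.54. nop-1 (ATCC64974_13570), the rRNA methylase fibrillarin, read 25.3, 28.4 and 25.7 CPM in MA234.1 and 340.0, 42.3 and 482 in ΔaslB. MDN1 (ATCC64974_62330), midasin, an ATPase that strips factors from large subunit precursors, read 1.56, 3.21 and 1.76 CPM and 60.96, 2.18 and 97.2. Library 2 stood above every MA234.1 library for nop-1, but within their range for MDN1.

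RNA polymerases I and III, which transcribe rRNA and tRNA, had 20, 1 and 20 of 23 subunit genes past the fold upward. That was 87%, 4.35% and 87%, against 20.1%, 4.21% and 18.1% of all genes. rpa1 (ATCC64974_100940), the largest subunit of polymerase I, read 10.6, 10.4 and 9.82 CPM in MA234.1 against 158, 11.3 and 191 in ΔaslB. Of 54 mitochondrial ribosomal protein genes, 50, 1 and 51 were past the fold upward (92.6%, 1.85% and 94.4%). Of 59 tRNA ligases and translation factors, 50, 0 and 51 were (84.7%, 0% and 86.4%). Among them was elongation factor tef1 (ATCC64974_107900) at 2088, 1999 and 2069 CPM in MA234.1 and 11285, 1983 and 11768 in ΔaslB. A different gene was past the fold downward in each of libraries 1 and 3, both named after their values were seen. eef1g (ATCC64974_15620), a subunit of the elongation factor 1 complex, was low in library 1, at 536, 474 and 489.6 CPM in MA234.1 and 168, 483 and 605 in ΔaslB. eif4e3-b (ATCC64974_102870), closest to a cap-binding initiation factor, was low in library 3, at 20.5, 19.9 and 21.3 against 26.01, 23.5 and 9.64 CPM. For tef1, library 2 lay just below the MA234.1 range. The ΔaslA libraries read 11549, 8270 and 11691 CPM for tef1, far above MA234.1 as well.

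Biosynthetic genes outside the ribosome followed in part. Of 70 amino acid biosynthesis genes, 40, 1 and 38 were past the fold upward and 11, 0 and 13 downward in libraries 1 to 3. Upward that was 57.1%, 1.43% and 54.3%, against 20.1%, 4.21% and 18.1% of all genes. Downward it was 15.7%, 0% and 18.6%, against 24.6%, 1.6% and 26.2%. ACL1 (ATCC64974_87430), one subunit of ATP-citrate synthase, a source of acetyl-CoA in the cytosol, read 17.5, 16.3 and 16.9 CPM in MA234.1 and 1087, 18.9 and 915 in ΔaslB. Its neighbour ATCC64974_87440, the other subunit, read 31.4, 28.9 and 28.5 against 867, 29.2 and 787 CPM. Both subunit genes stayed near MA234.1 in library 2 and stood far higher in the others. ERG13 (ATCC64974_57630), the synthase at the entry to sterol synthesis, differed in that library 2 was also past the fold, at 23.04 CPM against 6.24 to 9.996 in MA234.1, with libraries 1 and 3 at 441 and 347. SSB1 (ATCC64974_66140), a chaperone that binds ribosomes, read 47.3, 45.7 and 47.6 CPM in MA234.1 and 1588, 67.3 and 1738 in ΔaslB. Chaperones as a whole were split, with 19, 1 and 19 of 61 past the fold upward (31.1%, 1.64% and 31.1%) and 6, 0 and 4 downward (9.84%, 0% and 6.56%).

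Enzymes that make sugars from acetyl-CoA were in the opposite position in libraries 1 and 3. All 5 genes of the glyoxylate cycle and gluconeogenesis were past the fold downward in both and 0 in library 2, with median log2 differences of -4.70, -0.49 and -4.24. icl1 (ATCC64974_15880), isocitrate lyase, read 7662, 7177 and 7098 CPM in MA234.1 and 55.8, 5216 and 77.5 in ΔaslB. All 3 ΔaslB libraries lay below the MA234.1 range, library 2 by much the least. Of 53 genes of β-oxidation, carnitine transfer and peroxisome assembly, 33, 1 and 40 were past the fold downward and 2, 0 and 1 upward. The downward shares were 62.3%, 1.89% and 75.5%, against 24.6%, 1.6% and 26.2% of all genes.

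Glycolysis, the breakdown of sugars to pyruvate, had shares near those of all genes. It had 3, 0 and 3 of 17 genes past the fold upward and 6, 0 and 5 downward, or 17.6%, 0% and 17.6% upward against 20.1%, 4.21% and 18.1% of all genes, and 35.3%, 0% and 29.4% downward against 24.6%, 1.60% and 26.2%. gpdA (ATCC64974_72940), glyceraldehyde-3-phosphate dehydrogenase, read 7011, 6846 and 6877 CPM in MA234.1 and 5755, 4799.9 and 6123 in ΔaslB. For gpdA, library 2 was the lowest of the 6. Library 2 had the lowest glycolysis median of the ΔaslB libraries (0.02, -0.43 and 0.15 in libraries 1 to 3). Oxidative phosphorylation genes had median differences of 0.46, -0.15 and 0.66. Of 55, 3, 0 and 12 were past the fold upward (5.45%, 0% and 21.8%) and 2, 0 and 2 downward. The upward share was below that of all genes in library 1 and near it in library 3. The downward share, 3.64%, 0% and 3.64%, was below that of all genes in each library. In libraries 1 and 3 the medians stood above those of all genes (0 and -0.07), so the list lay somewhat higher there, mostly within the fold. Proteasome genes, with medians of -0.05, -0.23 and 0.07, had 0, 0 and 0 of 33 past the fold upward and 0, 0 and 1 downward.

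Many genes of secreted hydrolases and sugar uptake were lower in libraries 1 and 3, where 24.6% and 26.2% of all genes were. Of 55 xylan, cellulose and arabinan hydrolases, 34, 3 and 31 were past the fold downward in libraries 1 to 3, and 5, 4 and 4 upward. abfB (ATCC64974_30860), which releases arabinose from hemicellulose and pectin, read 1380.2, 1259 and 1260.0 CPM in MA234.1 and 1.95, 990.1 and 1.66 in ΔaslB. Libraries 1 and 3 held under 2 CPM of it and library 2 lay below the MA234.1 range. GLAA (ATCC64974_75950), glucoamylase, a main starch enzyme, read 3722, 3679.8 and 3660.2 against 601, 1731 and 168 CPM, and was below MA234.1 by more than 2-fold in every ΔaslB library. In ΔaslA, GLAA read 69.0, 53.9 and 61.1 CPM, below every ΔaslB library. For the 2 genes closest to xlnR, the activator of xylanase genes, ATCC64974_28320 read 170.0, 166 and 155 CPM in MA234.1 and 102, 135 and 39.6 in ΔaslB, and ATCC64974_91960 read 26.5, 26.7 and 26.1 against 5.19, 15.03 and 3.16. In both, library 2 was nearest to MA234.1 and library 3 farthest.

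Several abundant genes were graded, with library 2 closest to MA234.1, library 1 next and library 3 far below. The sugar transporter gene closest to rco-3 (ATCC64974_35540) read 7897, 7970.4 and 7887 CPM in MA234.1 and 3053, 5182 and 535 in ΔaslB. katG (ATCC64974_21630), a catalase-peroxidase that removes hydrogen peroxide, read 2023, 1895 and 1923 against 679, 1370.0 and 89.5 CPM. The peptide transporter gene ptr2 (ATCC64974_76060) read 1104, 1059 and 1086 against 192, 778 and 9.81. In each of these 3 genes library 3 held the least. Of 190 sugar transporter genes, 94, 11 and 108 were past the fold downward in libraries 1 to 3 and 28, 8 and 19 upward. Of 73 secreted peptidases 32, 1 and 40 were downward (43.8%, 1.37% and 54.8%, against 24.6%, 1.60% and 26.2% of all genes) and 8, 4 and 1 upward. Of 93 cytochrome P450 genes 40, 6 and 51 were downward (43%, 6.45% and 54.8%) and 6, 5 and 5 upward. Amino acid and peptide transporters, with 22, 8 and 33 of 88 downward (25%, 9.09% and 37.5%) and 14, 3 and 12 upward, were near the share of all genes in library 1. Of 354 Zn2Cys6 transcription factors, the fungal binuclear cluster family, 123, 2 and 147 were downward (34.7%, 0.565% and 41.5%) and 28, 11 and 16 upward (7.91%, 3.11% and 4.52%). Of all genes 20.1%, 4.21% and 18.1% were upward.

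**Figure D2:**
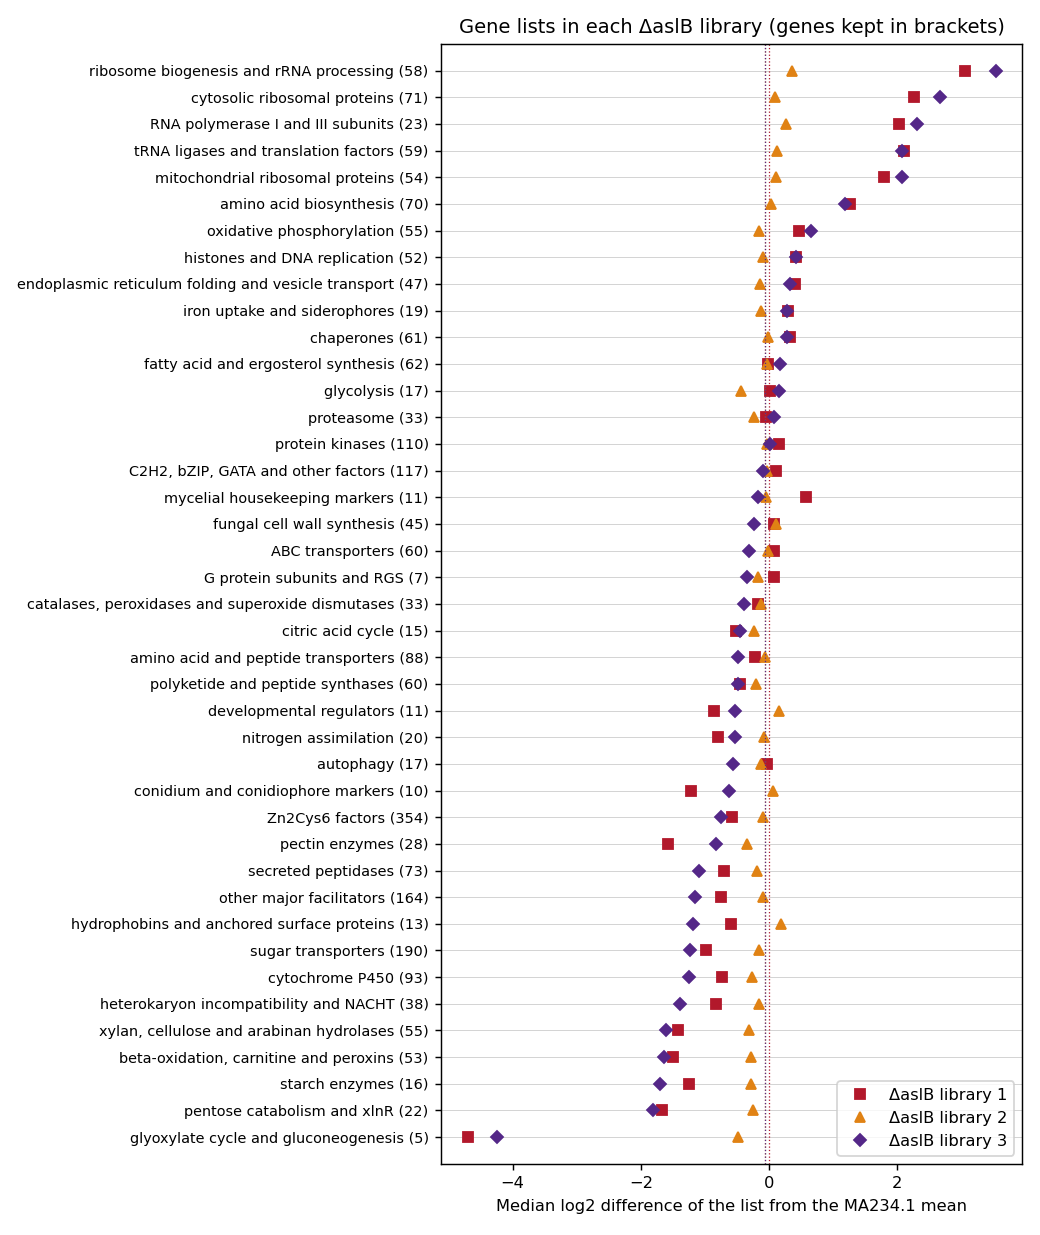
Median log2 difference from the MA234.1 mean (horizontal) of each gene list in ΔaslB library 1 (square), 2 (triangle) and 3 (diamond), with the number of genes in brackets and dotted lines at the medians over all genes (0, -0.07 and -0.07). The triangles stay between -0.49 and 0.35, while squares and diamonds run from -4.70 to 3.54.

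Some genes lay on the same side of MA234.1 in every ΔaslB library. Of 9568 genes, 1338 (14.0%) lay above the MA234.1 range in all 3 libraries and 2185 (22.8%) below it. The numbers are set largely by library 2: without it, 3322 genes lay above and 3545 below in both of the others. Library 2 was the nearest to MA234.1 for 1042 of the higher and 1868 of the lower genes. At 2-fold or more in every library, 105 genes (1.10%) were higher and 76 (0.794%) lower. Scaling by total counts alone put 2118 genes above and 1482 below the range, so the split between directions depends on the scaling. It moved the median of all genes by 0.16 (log2) in library 2 and by 0.10 in library 1. An exact permutation test of 3 against 3 libraries cannot give a p below 0.1, and none of these genes was called by edgeR over all libraries.

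Among the genes that stayed highest, ranked by their smallest difference in any ΔaslB library, HSP42 (ATCC64974_82800, contig 14, 136478 to 137486), a small heat shock protein that binds unfolded proteins, came first. The genes ranked here were picked for lying above the MA234.1 range in every ΔaslB library, so their lack of overlap was fixed by the choice. HSP42 read 6.79, 5.15 and 5.30 CPM in MA234.1 and 75.4, 44.5 and 23.6 in ΔaslB, with library 3 the lowest of the ΔaslB libraries. edgeR gave a log2 difference of 3.06 (SE 0.43, adjusted p = 0.0665, higher in 3 of 3 libraries); over the alternatives the adjusted p ran from 2.04e-08 to 0.41. ATCC64974_45860, closest to the membrane protein SYG1 of yeast, read 12.2, 17.7 and 15.6 CPM in MA234.1 and 261, 57.3 and 76.6 in ΔaslB.

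Genes of ribosome assembly and nucleotide supply were also among them. spb1 (ATCC64974_110100), an rRNA methyltransferase of the large subunit, read 12.4, 14.5 and 14.8 CPM in MA234.1 and 119, 45.3 and 159.8 in ΔaslB. ATCC64974_48990, inosine monophosphate dehydrogenase, the entry to guanine nucleotides, read 23.7, 21.4 and 20.96 against 213, 67.1 and 266. For both, library 2 was past the fold but lower than libraries 1 and 3. The rRNA methyltransferase gene rcm1 (ATCC64974_15590) read 1.28, 1.34 and 0.230 against 8.50, 2.97 and 13.7 CPM. ATCC64974_70730, closest to a protein of 20S rRNA accumulation in yeast, read 0.550, 1.27 and 1.15 against 20.7, 3.52 and 22.9 CPM. The purine-cytosine permease gene fcyB (ATCC64974_68980) read 3.58, 3.95 and 4.84 CPM in MA234.1 and 74.2, 12.5 and 24.4 in ΔaslB, with library 1 the highest. The last 3 genes were low in MA234.1, so that small counts set their folds.

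Other genes of this set belong to other processes. The Δ12 fatty acid desaturase gene ATCC64974_5690, whose product makes linoleate, read 23.7, 27.97 and 26.5 CPM in MA234.1 and 81.3, 74.5 and 185 in ΔaslB. The tRNA thiolation gene ncs2 (ATCC64974_5520) read 7.61, 5.45 and 5.07 against 33.4, 17.7 and 17.4 CPM. CYC2 (ATCC64974_32490), a mitochondrial factor for cytochrome c, read 7.15, 5.82 and 3.76 against 32.7, 15.6 and 36.5 CPM. Over these 3 genes library 2 was not always the nearest to MA234.1. yteR (ATCC64974_4380), an enzyme of pectin breakdown, read 1.47, 0.448 and 1.15 against 10.9, 6.43 and 3.32 CPM, and had library 3 nearest to MA234.1. ATCC64974_13760, without a description, was even over the ΔaslB libraries, with 0.642, 0.298 and 0.844 CPM in MA234.1 against 5.62, 6.24 and 5.40 in ΔaslB. ATCC64974_33180, also undescribed, read 1.65, 4.03 and 2.30 against 28.5, 9.34 and 10.1.

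The genes that stayed lowest in every ΔaslB library included enzymes of carnitine, alcohol and inulin use. Bbox1 (ATCC64974_72730, contig 11, 363959 to 365499), the dioxygenase of the last step of carnitine synthesis, read 170.5, 179 and 175 CPM in MA234.1 and 3.24, 52.6 and 1.16 in ΔaslB. AOX1 (ATCC64974_107550), alcohol oxidase, a peroxisomal enzyme in methylotrophic yeasts, read 157, 168 and 159 against 0.721, 51.04 and 0.582 CPM. In both, library 2 lay between MA234.1 and libraries 1 and 3, which held few reads. edgeR gave Bbox1 a log2 difference of -3.20 (SE 1.12, adjusted p = 0.108, lower in 3 of 3 libraries); over the alternatives the adjusted p ran from 2.13e-06 to 0.429.

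inuE (ATCC64974_96670), a secreted exo-inulinase that releases fructose, read 142, 132 and 145 CPM in MA234.1 and 4.40, 43.5 and 3.49 in ΔaslB. lacC (ATCC64974_96800), a β-galactosidase, read 58.3, 60.05 and 69.01 against 4.18, 23.6 and 1.75 CPM. The formaldehyde detoxification gene fdh (ATCC64974_26450) read 37.5, 27.8 and 31.01 against 1.80, 12.1 and 0.831 CPM. These 3 genes had library 3 lowest and library 2 nearest to MA234.1. The quinate permease gene qutD (ATCC64974_104970), for uptake of a plant acid, had the same order at 32.4, 31.3 and 33.8 against 3.96, 12.4 and 1.16 CPM. The protease gene aorO (ATCC64974_21680) read 14.03, 14.5 and 12.8 against 1.80, 5.33 and 1.91 CPM, and here libraries 1 and 3 were close. ATCC64974_61290, closest to ribose 5-phosphate isomerase of the pentose phosphate pathway, read 1375, 1276 and 1282 against 117, 548 and 70.05 CPM. The genes given here as staying lowest were picked for lying below the MA234.1 range in every ΔaslB library, so their lack of overlap is no separate result. The yeast nitrogen regulator URE2 is the closest protein to ATCC64974_99410, at 6.51, 8.65 and 7.98 CPM in MA234.1 and 0.144, 2.73 and 0.249 in ΔaslB. The efflux carrier gene ATCC64974_72710, closest to TOXA, read 10.3, 10.2 and 9.67 against 1.51, 3.64 and 0.0831 CPM.

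Among the genes with the smallest p were some in which the ΔaslB libraries lay close together. pgt1 (ATCC64974_24950), a glutathione transporter, read 62.5, 64.6 and 71.1 CPM in MA234.1 and 27.7, 21.8 and 26.6 in ΔaslB. edgeR gave it a log2 difference of -1.38 (SE 0.19, adjusted p = 0.0665, lower in 3 of 3 libraries), and over the alternatives the adjusted p ran from 2.36e-08 to 0.41. dmg (ATCC64974_102720), dimethylglycine oxidase of choline breakdown, read 33.8, 34.98 and 33.1 against 73.1, 70.4 and 85.4 CPM. EBP (ATCC64974_64150), closest to a sterol isomerase, read 71.8, 68.8 and 74.1 against 223, 209 and 154 CPM. Both were higher in ΔaslB, library 2 included. On the lower side, HAA1 (ATCC64974_63410), a transcription factor that in yeast answers to weak acids, read 181, 172 and 182 CPM in MA234.1 and 87.4, 101 and 89.6 in ΔaslB. The endoglucanase gene ATCC64974_83220 read 49.2, 58.9 and 63.9 against 17.7, 29.2 and 18.7 CPM. The endochitinase gene ATCC64974_26570 read 40.3, 34.2 and 37.9 against 13.4, 20.8 and 15.8 CPM. None of these 3 had a ΔaslB library within the MA234.1 range, which picking genes by a small p makes likely.

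**Figure D3:**
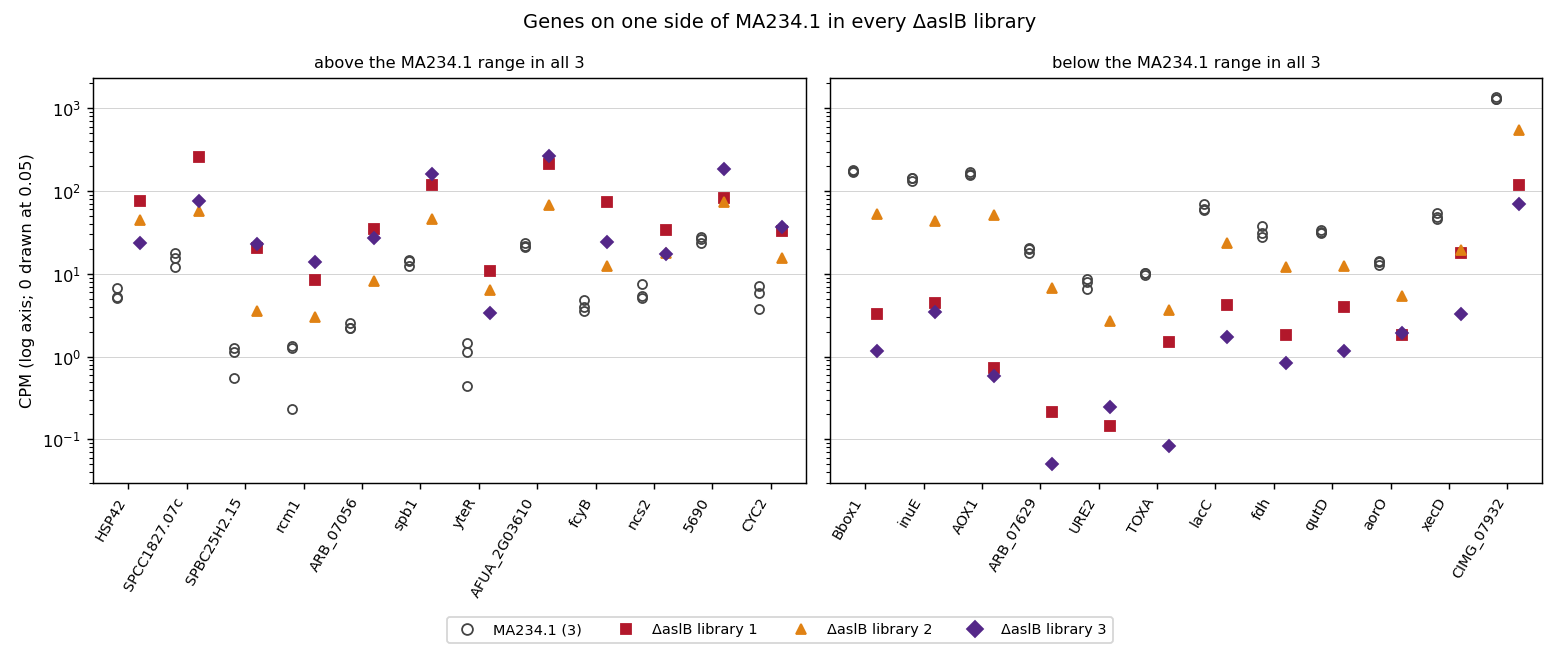
CPM on a log axis of the 12 described genes furthest above (left) and the 12 furthest below (right) MA234.1 in every ΔaslB library, ranked by the smallest difference; open circles are the 3 MA234.1 libraries and filled symbols ΔaslB libraries 1 (square), 2 (triangle) and 3 (diamond). For the lower genes the triangle sits between the circles and the other symbols, as for Bbox1 at 52.6 CPM.

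Few genes lay beyond both other strains in every ΔaslB library. Only 13 genes (0.136% of 9568) lay above, and 60 (0.627%) below, every MA234.1 and ΔaslA library in all 3 ΔaslB libraries. The same rule gave 1991 and 1239 genes for MA234.1 and 547 and 809 for ΔaslA. For ΔaslB the rule needs library 2 beyond both strains too. That library lay near MA234.1 on the first principal component (42.2 against 56.5 to 58.2). Small counts can thus come from library 2 alone, so they cannot be read as a result about the strain. This rule and the genes it names were chosen after the values were seen. FLOT2 (ATCC64974_38590, contig 5, 1717210 to 1718931), closest to flotillin, a membrane scaffold protein, read 65.02, 66.5 and 62.6 CPM in MA234.1, 63.3, 48.4 and 60.5 in ΔaslA and 5.26, 33.5 and 31.6 in ΔaslB. Its neighbour ELA1 (ATCC64974_38600), closest to elongin A, read 37.8, 42.2 and 38.1 CPM in MA234.1, 39.3, 39.6 and 41.9 in ΔaslA and 31.2, 32.01 and 29.9 in ΔaslB. FLOT2 was lowest in library 1, while ELA1 was even over the ΔaslB libraries. clr4 (ATCC64974_103770), closest to the histone H3 lysine methyltransferase of heterochromatin in fission yeast, read 40.8, 48.9 and 44.5 CPM in MA234.1, 42.1, 42.2 and 39.1 in ΔaslA and 23.1, 30.01 and 30.6 in ΔaslB. PAPD5 (ATCC64974_95540), a non-canonical poly(A) polymerase of RNA surveillance, read 87.5, 97.05 and 94.03 CPM in MA234.1, 87.3, 94.3 and 92.02 in ΔaslA and 56.4, 73.1 and 57.3 in ΔaslB. edgeR gave FLOT2 a log2 difference from MA234.1 of -1.46 (adjusted p = 0.121) and clr4 of -0.68 (adjusted p = 0.0679); over the alternatives these ran from 0.000198 to 0.41 and from 0.00742 to 0.41.

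Library 1 held genes that no other library of the series shared. At least 2-fold beyond all 8 other libraries, it had 127 genes higher and 162 lower, library 2 had 30 and 3, and library 3 had 2 and 53. MA234.1 libraries had 1 to 15 higher and 8 to 52 lower, and ΔaslA library 2 had 121 and 147, close to ΔaslB library 1. With a prior count of 5, library 3 had 1 higher and 24 lower and library 1 had 122 and 126, so that the lower counts of library 3 rest in part on genes with few reads. This count was also chosen after the values were seen. KHT2 (ATCC64974_41830), a hexose transporter, read 960.2 CPM in library 1, against 43.9 to 48.9 in MA234.1, 63.2 to 120.2 in ΔaslA and 60.4 and 74.96 in libraries 2 and 3. The phosphate permease gene pho-4 (ATCC64974_59160) read 45.8 CPM there and 2.48 and 4.99 in libraries 2 and 3, with 3.03 to 3.84 in MA234.1. Kif1b (ATCC64974_30000), a kinesin motor, read 33.00 CPM there against 0.537 to 0.746 in MA234.1. The mutanase gene ATCC64974_99040, whose product cuts α-1,3-glucan, read 82.7 against 5.37 to 10.4 CPM. These are single genes out of 127. Scaling by total counts alone gave library 1 142 genes higher and 134 lower.

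Genes lowest in library 1 included an enzyme of cysteine breakdown and an allergen. CDO1 (ATCC64974_81990), cysteine dioxygenase, read 512, 473 and 502 against 6.92, 375 and 43.1 CPM, with library 3 also well below MA234.1. The gene ATCC64974_83040, closest to the allergen Asp f 4 of Aspergillus fumigatus, read 15.2, 10.1 and 10.5 against 0.577, 18.8 and 96.4 CPM. Libraries 1 and 3 lay on opposite sides of MA234.1 for the second gene. The ΔaslA libraries read 94.8 to 120.6 CPM for it, a range that holds library 3.

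Runs of at least 4 neighbouring genes that stood apart from all 8 other libraries in the same direction were sought in the ΔaslB libraries only. The only such run lay on contig 3, from 3433159 to 3444451, and was low in library 1. Its first gene, ATCC64974_22370, closest to the kinase CDC15, read 751, 782 and 809.7 CPM in MA234.1 and 81.5, 611 and 909 in ΔaslB. ATCC64974_22380 read 292, 284 and 304 against 35.02, 216 and 325 CPM. ATCC64974_22390 read 1056, 1012 and 1054 against 135, 785 and 1003 CPM. Library 1 was far below every other library in all 3. The last gene, ATCC64974_22400 (contig 3, 3443124 to 3444451), has a fungal transcription factor domain and read 50.9, 52.6 and 49.7 CPM in MA234.1, 19.3, 13.6 and 24.1 in ΔaslA and 0.216, 49.95 and 22.6 in ΔaslB. In library 1 that was 3 counts. Libraries 2 and 3 were within or near the values of MA234.1 or ΔaslA over all 4 genes. Just before the run, ATCC64974_22360 read 64.9 CPM in library 1 and 89.7 to 128 elsewhere, lower by less than 2-fold. Further before it, ATCC64974_22320 to ATCC64974_22350 were also lowest in library 1. Of these, ATCC64974_22340 and ATCC64974_22350 had only 3 and 2 counts there. Just after the run, ATCC64974_22410 read 20.2 CPM in library 1, within the 17.5 to 33.9 of the other libraries. Whether the run bears on the deleted gene was not tested.

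**Figure D4:**
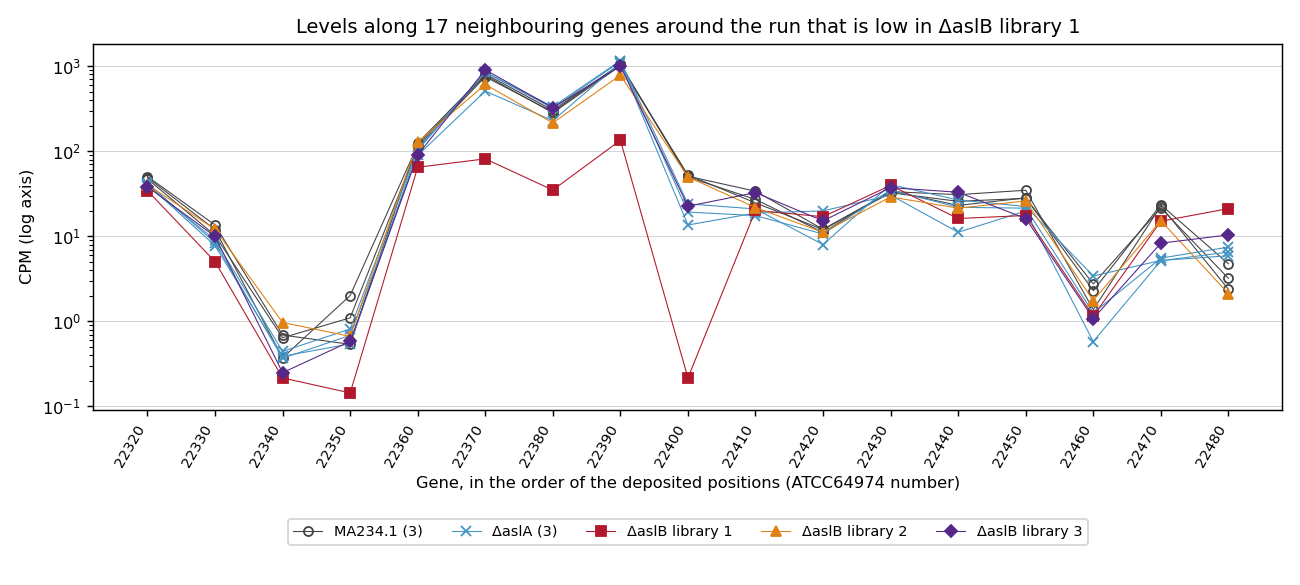
CPM (log axis) in all 9 libraries over 17 neighbouring genes of contig 3 in the order of their deposited positions; circles are MA234.1, crosses ΔaslA, and square, triangle and diamond ΔaslB libraries 1, 2 and 3. The square drops at ATCC64974_22370 to ATCC64974_22400, reaching 0.216 CPM, while all other libraries read 13.6 CPM or more there.

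Library 2 was close to MA234.1 yet had its own genes. The ABC transporter gene ATCC64974_44030, closest to CDR4, read 3.30, 3.06 and 4.30 against 12.8, 44.7 and 5.32 CPM. mus81 (ATCC64974_55540), an endonuclease of DNA repair, read 4.31, 4.85 and 5.22 against 11.96, 36.4 and 12.1 CPM. Both were above MA234.1 in every ΔaslB library and highest in library 2. Of 60 ABC transporter genes, 17, 10 and 10 were past the fold upward in libraries 1 to 3 and 15, 1 and 17 downward; library 2 had 16.7% of them higher, against 4.21% of all genes.

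Its only run of at least 4 neighbours past the fold was on contig 13, from 589958 to 603582, with 4 genes higher. They are ATCC64974_75660, closest to a SWI/SNF helicase, ATCC64974_75670, closest to the incompatibility protein HET-E1, ATCC64974_75680, closest to an oxidoreductase, and ATCC64974_75690, undescribed. ATCC64974_75670 read 33.4, 33.9 and 35.4 CPM in MA234.1 and 82.4, 224 and 49.5 in ΔaslB, and was highest in library 2. The run was past the fold upward in library 1 also, with median log2 differences of 2.01, 2.01 and 1.58 in libraries 1 to 3. ATCC64974_75680 read 2.57, 2.24 and 2.23 against 34.5, 8.18 and 26.8, and was lowest in library 2 among the ΔaslB libraries. All 4 genes were also above MA234.1 in every ΔaslA library. There ATCC64974_75670 read 109, 76.7 and 106 CPM and ATCC64974_75680 read 18.6, 17.3 and 22.1, so the run was not particular to library 2.

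In 22 genes, library 2 was past the fold upward while libraries 1 and 3 were past it downward, and 3 genes showed the reverse. sodB (ATCC64974_13320), a mitochondrial superoxide dismutase, read 23.9, 22.3 and 24.9 CPM in MA234.1 and 3.67, 73.5 and 2.58 in ΔaslB. ADR1 (ATCC64974_68210), which in yeast activates genes of alcohol and fatty acid use, read 21.2, 19.8 and 20.5 against 3.39, 59.6 and 4.57 CPM. The anaphase-promoting complex gene Anapc11 (ATCC64974_3810) read 278, 293 and 289 against 43.9, 582 and 24.8 CPM. Each had library 2 alone above the MA234.1 range. In reverse, NRPS4 (ATCC64974_84880), a nonribosomal peptide synthetase, read 6.60, 8.06 and 6.91 against 62.98, 2.67 and 34.5 CPM. It lies in a run of 6 genes, ATCC64974_84870 to ATCC64974_84920, the last closest to the siderophore transporter mirB, that were past the fold upward in libraries 1 and 3, with median log2 differences of 2.97, -0.25 and 2.06 in libraries 1 to 3. The genes of this paragraph were picked with their values known.

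**Figure D5:**
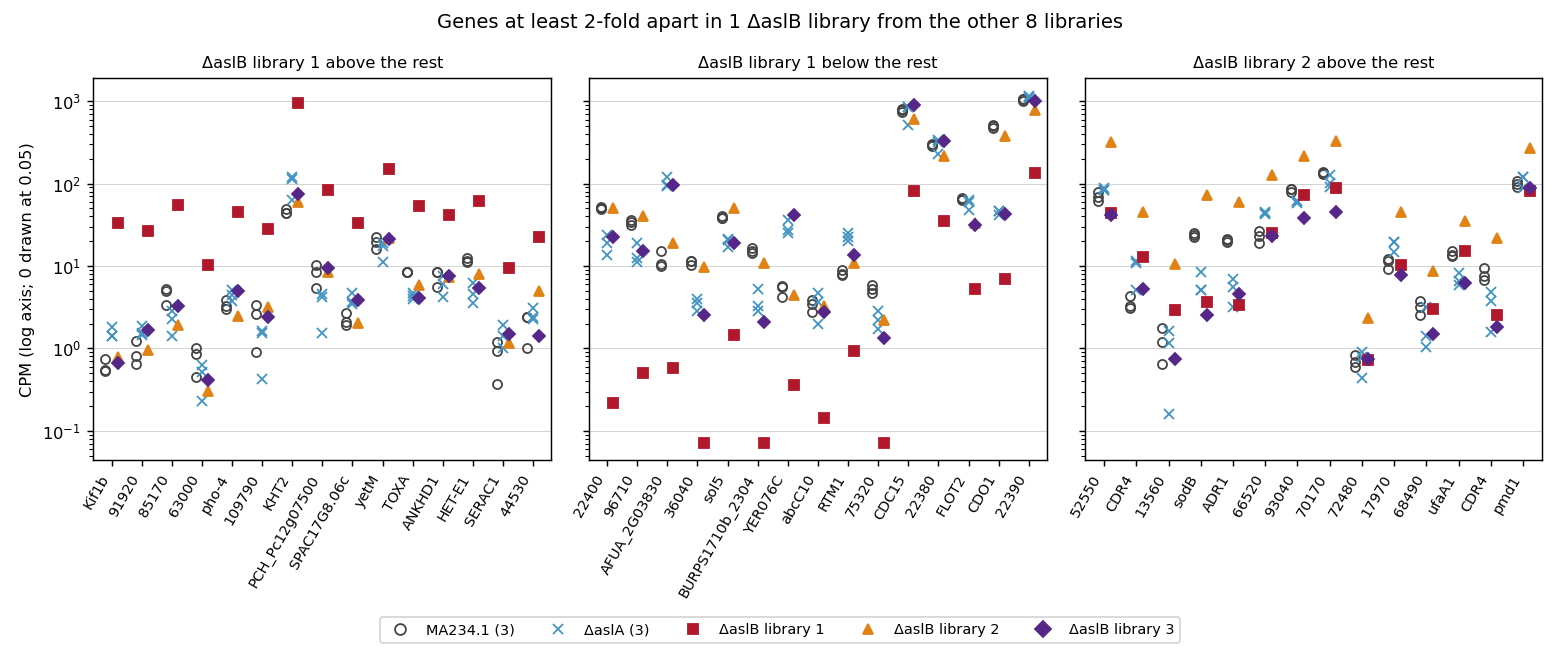
CPM (log axis) of the genes furthest apart in 1 ΔaslB library from all 8 other libraries: above (left) and below (middle) in library 1, and above in library 2 (right); circles are MA234.1, crosses ΔaslA, and square, triangle and diamond ΔaslB libraries 1, 2 and 3. CDR4 names 2 genes, 1 gene that is not reported is left out, and KHT2 stands at 960.2 CPM in library 1.

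Libraries 1 and 3, though alike in the main programmes, were past the fold on opposite sides of MA234.1 in 56 genes. lovF (ATCC64974_29660), closest to a polyketide synthase, read 43.8, 42.7 and 45.5 CPM in MA234.1 and 189, 39.3 and 2.49 in ΔaslB. codA (ATCC64974_66310), choline oxidase, which makes betaine, read 119.6, 127 and 116 against 331, 192 and 21.6 CPM. gatA (ATCC64974_64920), the transaminase of γ-aminobutyrate, read 522, 464 and 464 against 995, 715 and 205 CPM. The glucose transporter gene ATCC64974_87900, closest to HGT1, read 209.7, 182 and 190.5 against 733, 182 and 84.6 CPM. In these 4 genes, chosen after their values were seen, library 1 was above and library 3 below MA234.1. Library 2 was between them in each. The ΔaslA libraries were below MA234.1 too, so the low side was not particular to library 3. They read 0.518 to 1.40 CPM for lovF, 27.5 to 40.8 for codA, 315 to 437 for gatA and 35.5 to 63.8 for ATCC64974_87900. The reverse held for pgaB (ATCC64974_58540), endopolygalacturonase, at 21.00, 21.3 and 21.2 CPM in MA234.1 and 9.87, 19.04 and 57.3 in ΔaslB. In ΔaslA, pgaB read 34.2 to 40.4 CPM, also above MA234.1. The reverse held in part for the cell wall gene gel4 (ATCC64974_68420), a glucanosyltransferase, which was near MA234.1 in library 1 and highest in library 3, at 1.65, 1.86 and 2.61 against 1.30, 1.94 and 30.8 CPM.

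A further pair of genes kept many reads in library 1 and few in library 3. JEN1 (ATCC64974_45030), a carboxylic acid transporter, read 242, 237 and 236 CPM in MA234.1 and 99.7, 229.9 and 1.08 in ΔaslB. ATCC64974_47190, closest to the largest subunit of RNA polymerase II, read 181, 168 and 168 against 135, 104 and 0.748 CPM, against 0.296 to 0.580 in ΔaslA. Library 3 lay just above the ΔaslA range for that gene, and within it for JEN1, which read 0.518 to 2.90 CPM in ΔaslA.

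Neighbouring genes past the fold in the same direction were counted as runs. Library 1 had 117 runs of at least 4 neighbouring genes past the fold downward and 36 upward, and library 3 had 122 and 25. Library 2 had 1 run upward and 0 downward, and no run was shared by all 3 libraries (0 in each direction). The longest run held 25 genes on contig 6, from 1057723 to 1140203, lower in library 1 (median log2 differences -2.48, -0.15 and -3.13 in libraries 1 to 3). It includes genes closest to a gluconolactonase (ATCC64974_42520), at 67.04, 65.3 and 65.8 CPM in MA234.1 and 2.23, 59.5 and 2.24 in ΔaslB, and to L-rhamnose dehydrogenase (ATCC64974_42540), at 20.6, 22.1 and 25.4 against 0.288, 17.8 and 0 CPM. Libraries 1 and 3 held next to no reads of the second, and library 2 lay just below MA234.1. In library 3 the longest run held 15 genes on contig 13, from 678235 to 725007, beginning with GLAA, with medians of -2.62, -0.27 and -2.71. Runs were counted over genes kept by the filter, and no chance level was computed for them.

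Secondary metabolite clusters, groups of neighbouring genes that make toxins or pigments, parted library 3 from library 1 in places. The 11 genes kept of a polyketide synthase cluster on contig 4, from 1322317 to 1357829, had median log2 differences of -0.56, -0.34 and -3.02 in libraries 1 to 3, and 3, 1 and 8 of them were past the fold downward. Over all 60 polyketide and peptide synthase genes, 21, 3 and 21 were downward and 8, 1 and 5 upward, so that libraries 1 and 3 had the same count of low synthase genes. Downward that was 35%, 5% and 35%, against 24.6%, 1.6% and 26.2% of all genes. Upward it was 13.3%, 1.67% and 8.33%, against 20.1%, 4.21% and 18.1%.

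Regulators of development and G protein signalling are few, and their counts lay near the shares of all genes. Of 11 developmental regulators, 2, 1 and 2 were past the fold upward in libraries 1 to 3 and 4, 0 and 3 downward, where 20.1%, 4.21% and 18.1% of all genes were upward and 24.6%, 1.60% and 26.2% downward. Of 7 G protein and RGS genes 1, 1 and 1 were upward and 0, 0 and 1 downward. flbA (ATCC64974_61450) read 19.8, 24.02 and 22.6 CPM in MA234.1 and 25.9, 31.2 and 16.9 in ΔaslB, with the ΔaslB libraries on both sides of MA234.1. The Gα gene fadA (ATCC64974_101650), whose product FlbA acts on in aspergilli, read 194, 195 and 181 against 144, 167 and 149.5 CPM. gna-2 (ATCC64974_55930), another Gα gene, read 55.7, 52.96 and 52.6 against 29.1, 40.9 and 26.4 CPM. For both, every ΔaslB library was below MA234.1, for fadA by less than 2-fold in each. Among regulators of conidiation, the forming of asexual spores, the gene ATCC64974_72370, closest to brlA, read 36.9, 41.03 and 39.1 CPM in MA234.1 and 12.8, 25.6 and 16.4 in ΔaslB. wetA (ATCC64974_16190) read 24.03, 20.9 and 23.3 against 11.5, 28.01 and 16.3 CPM. abaA (ATCC64974_20070) read 0.825, 2.01 and 1.46 against 9.87, 2.85 and 12.3 CPM. This brlA gene was below and abaA above MA234.1 in all ΔaslB libraries, while wetA was on both sides. stuA (ATCC64974_38800), a regulator of conidiophore shape, was below MA234.1 in each, at 297, 299 and 295 against 163, 246 and 93.9 CPM. fluG (ATCC64974_2970), which acts early in conidiation, was above it, at 56.04, 59.6 and 65.6 against 194, 66.8 and 347 CPM, with library 2 just past the MA234.1 range.

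Markers of spores and conidiophores, summed, were below the MA234.1 range in every ΔaslB library, in library 2 by the least. The summed level of 13 such genes was 110.3 to 119.0 CPM in MA234.1 and 65.0, 103.4 and 75.95 CPM in ΔaslB libraries 1 to 3, and both dewA genes were at 0 in MA234.1. The ΔaslA sums, 84.2 to 86.2 CPM, were also below MA234.1. Members did not move together: in library 2 the brlA gene ATCC64974_72370 read 25.6 CPM, below MA234.1, and wetA 28.01, above it. Of the 10 kept by the filter, 1, 1 and 1 were past the fold upward and 5, 0 and 2 downward. Upward that was 10% in each, against 20.1%, 4.21% and 18.1% of all genes. Downward it was 50%, 0% and 20%, against 24.6%, 1.6% and 26.2%. General mycelial genes were present in every library, with actin (ATCC64974_32290) at 1661, 1604 and 1609.7 CPM in MA234.1 and 2417, 1476 and 2348 in ΔaslB, in which libraries 1 and 3 were higher and library 2 lower. They did not move as 1 set: of 11, 4, 1 and 3 were past the fold upward (36.4%, 9.09% and 27.3%) and 1, 0 and 1 downward (9.09%, 0% and 9.09%). tubB (ATCC64974_30260), a tubulin, read 226.5, 209.9 and 219.0 against 67.1, 153.0 and 76.9 CPM. The part of these markers in the differences above was not tested.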

How the data were processed

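RNA-seq of A. niger mycelium covered 9 libraries, 3 each of MA234.1, ΔaslA and ΔaslB, made from poly(A) RNA with a stranded kit and paired reads of 50 bp, per the labels' protocols. The authors deposited whole-number read counts per gene for 11187 genes, without normalization. HISAT2 2.2.1, Cuffdiff, Subread and featureCounts are named in the submitters' processing notes; neither their roles nor a build of the genome is stated in the sources used. The authors' own ratios and p-values were not used. Gene names, domains and positions came from the deposited annotation.

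Counts were tested with edgeR 4.0.16 (quasi-likelihood, TMM, filter by group, Benjamini-Hochberg adjustment) in 1 fit of all 9 libraries, tested on simulated data. The simulated counts had the spread of the MA234.1 libraries, whose median SD of log2 CPM was 0.125 against 0.619 in ΔaslB. They therefore do not show how the test performs at the ΔaslB spread. The filter left 9568 genes. Log2 CPM used a prior count of 2. No pair of replicates agreed within sampling noise (chi-square per degree of freedom of 2.36 to 643), so each counted once. Alternatives were other scalings, DESeq2 1.42.0, limma-voom 3.58.1 with and without quality weights, other filters, folds and prior counts, fewer libraries and a replicate block. 

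Named genes were the 12 highest and 12 lowest in all ΔaslB libraries (smallest difference, at least 5 CPM; plus 3 without description each way), the 6 highest and lowest per library and the 4 largest differences each way per pair of libraries (at least 20 CPM), the 3 most abundant of each list, developmental, G protein and xlnR genes, and the 6 of smallest p each way. Part of them is printed; others printed were chosen after their values were seen, as said beside them. Members, lists and rules were chosen with earlier results of these data known, and lists got no test. The result for 1 gene is not reported here. Intervals of counts cover counting error only. Python 3.11.15 and matplotlib 3.10.9 were used.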

Additional observations from a re-analysis of the deposited data

How the results depend on the processing

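The count of genes called by edgeR, 0 with all libraries, stayed at 0 with DESeq2 size factors, upper-quartile scaling, fits of the 6 libraries alone, weaker and stricter filters, limma-voom and the replicate block (0 genes, smallest adjusted p = 0.122). It was 783 with total counts alone (764 higher), 1741 with DESeq2 and 4492 with limma-voom and quality weights, which gave ΔaslB library 2 a weight of 0.0466. Leaving out each library in turn gave 0 to 5102, and 0 to 5166 in fits of MA234.1 and ΔaslB only, which were chosen after seeing the data; counts above 0 came without ΔaslB library 2 or, for 24 genes, library 3. Same-numbered libraries did not deviate together (r of deviations -0.016 to 0.002), so the numbers were not taken as pairs.

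At 4-fold, libraries 1, 2 and 3 had 718, 48 and 725 genes higher and 1100, 6 and 1289 lower. The stricter filter left library 2 with 244 higher and 66 lower, and total counts alone with 89 lower. Genes above MA234.1 in every ΔaslB library numbered 2118 with total counts alone, 105 at 2-fold in every library, and 1458 to 3322 with a library left out; those below numbered 1482, 76 and 2377 to 3545. The upper bounds came without ΔaslB library 2. Total counts alone moved the median of all genes by 0.16 in library 2 and 0.10 in library 1; 21 list medians changed sign with it, and 1 with DESeq2 size factors. Each of the 39 genes named by the smallest difference or the smallest p kept its direction under the alternatives. Most were picked for lying on 1 side of MA234.1 in every ΔaslB library and the rest for a small p. A reversal was therefore hardly possible, and the kept direction is no separate support. Single ΔaslB libraries were not tested against MA234.1, and below 3 counts a fold is not given. The causes were not tested.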
